A study of Homo sapiens with 33 samples.

Results

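The genes described here are 29 members of cholesterol synthesis and its sterol control, taken as the rows of the RNA-seq count table whose gene identifiers carry the listed symbols. They are 29 of the 85160 genes in the table, and each symbol was found in 1 row. By role, 8 belong to the mevalonate arm, 11 to the squalene and sterol arm, 6 to the control of the SREBP transcription factors, and 4 to sterol export and uptake under the nuclear receptor LXR. Of the 29, 28 had enough counts to be tested among 22971 genes. The exception was ABCG1, a cholesterol exporter, with 80 counts in all 33 libraries together.

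RNA was measured in NB4, an established human line of acute promyelocytic leukaemia that matures towards granulocytes when given all-trans retinoic acid (ATRA). The 11 groups were untreated cells at 0 h and cells kept for 4, 12, 24, 72 or 120 h with either 1 µM ATRA or the solvent DMSO as control, with medium and fresh drug added on day 3. Each group held 3 libraries, labelled as biological replicates and numbered 2, 4 and 5, all from cultures of 1 cell line. Values after ± are standard errors (SE) from 1 fit over all 33 libraries. In that fit all groups share 1 estimate of a gene's spread. All groups were grown in the same serum-containing medium. DMSO culture time and ATRA are described separately. Day 3 is also the day of the 72 h samples, so changes from 72 to 120 h cannot be told apart from the added medium and drug.

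Cells make cholesterol from acetyl-CoA, first through mevalonate to farnesyl diphosphate and then through squalene and lanosterol. When sterols in the endoplasmic reticulum run low, the escort protein SCAP carries SREBP precursors to the Golgi for cleavage, and the released factors switch on the enzyme genes. When sterols are plentiful, INSIG proteins hold SCAP back, and oxysterols activate LXR, which raises export of cholesterol and limits its uptake.

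Promoter letters are shown for 4 members on which the results below turn, because SREBP factors are known to act together with the CCAAT-binding factor NF-Y. Each is a stretch of 150 bases within the 250 bases before a start in the RefSeq table for GRCh38.p14. Capitals mark the sterol regulatory element core TCACNCCAC or the NF-Y box CCAAT, each on either strand (ATTGG is CCAAT on the other strand). The stretches were placed to hold the most matches, so they are not an unselected view. They run from 150 to 1 bases before the start for SREBF2, 170 to 21 for INSIG1, 155 to 6 for HMGCS1 and 161 to 12 for STARD4. HMGCS1 has 2 starts in that table, and the start with more matches is shown. The SREBF2 stretch is chr22:41832955-41833104 (+), the INSIG1 stretch chr7:155297708-155297857 (+), the HMGCS1 stretch chr5:43313418-43313567 (-) and the STARD4 stretch chr5:111512547-111512696 (-). All 4 lie before the RefSeq start, and the merged gene models used for counting reach across all or part of each.
SREBF2: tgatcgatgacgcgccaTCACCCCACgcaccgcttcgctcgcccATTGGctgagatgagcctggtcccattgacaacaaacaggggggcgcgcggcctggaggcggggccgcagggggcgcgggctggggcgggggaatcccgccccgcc
INSIG1: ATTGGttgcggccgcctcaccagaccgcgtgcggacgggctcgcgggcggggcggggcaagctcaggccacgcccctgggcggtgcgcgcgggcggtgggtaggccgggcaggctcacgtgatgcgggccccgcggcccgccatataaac
HMGCS1: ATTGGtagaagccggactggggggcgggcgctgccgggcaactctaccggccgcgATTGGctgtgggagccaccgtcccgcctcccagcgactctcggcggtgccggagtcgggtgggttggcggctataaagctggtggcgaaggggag
STARD4: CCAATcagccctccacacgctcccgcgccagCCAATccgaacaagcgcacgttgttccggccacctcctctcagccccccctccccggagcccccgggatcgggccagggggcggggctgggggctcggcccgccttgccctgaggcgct

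Of the 29 members, 25 matched that table. In the 250 bases before their starts, searched on both strands, CCAAT was present for 19 of 25 genes (76.0%), against 37% of all 27305 genes in the table. The GC box GGGCGG was present for 24 of 25 (96.0%), against 46.24% of all genes. The core TCACNCCAC was present for 1 of 25 (4.0%), against 1.09% of all genes: SREBF2 held it 133 to 125 bases before its start. These matches are letters in a window and were not tested for binding. The background was every gene in that table, not only genes with enough counts to be tested here.

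Libraries held 18341456 to 33490654 counts, with a median of 25927472, and log2 CPM of libraries within a group correlated at 0.9855 or more. CPM is a gene's count relative to its library's TMM-scaled total, and it compares a gene between samples; comparisons between genes below use CPM per kilobase of exon. Libraries of 0, 4 and 12 h shared 1 sequencing lane by the column names of the table, and those from 24 h on were in 2 others. The comparison of DMSO at 24 h with untreated cells, and any order of levels between the first 3 times and later ones, therefore cannot be told apart from the lane; all other tests of 1 group against another below are within lanes. The change of the ATRA effect from 12 to 24 h sets differences measured in separate lanes side by side, so it too cannot be told apart from the lane. Of the promyelocyte markers, MPO was the most abundant, and KIT was at or near 0 in every group. In untreated replicate 2, KRT19 had 45 counts and COL1A1 had 42, against 0 to 3 in the other 2 untreated libraries. The ACAT2 row cannot be separated from WTAP, with which it shares 74.0% of its exon length on the same strand and nearly all its counts (260.1 against 263.2 CPM in DMSO at 120 h). HSD17B7 has near-identical pseudogene copies, so its values are uncertain.

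In DMSO cultures the module first fell and later rose. A member is called where the adjusted p-value of edgeR's quasi-likelihood test, corrected over all 22971 genes, was below 0.05. Against untreated cells, 19 of 28 tested members fell at 4 h and 1 rose, where 15.7% of all genes fell and 15.7% rose. At 12 h, 21 fell and none rose, where 11.5% of all genes fell and 11.2% rose. The median member changed by -0.41 at 4 h and by -0.54 at 12 h on the log2 scale, beside medians of 0.01 and 0.00 for all genes tested. Untreated cells were taken at 0 h without solvent, so solvent and time in culture cannot be told apart here.

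At 24 h in DMSO, 7 members were lower than in untreated cells, where 9.24% of all genes were lower, and 2 were higher, where 9.87% were higher. The median member stood at -0.02, but MYLIP was lower by -1.02 and ABCA1 by -0.65 (adjusted p 1.6e-09 and 2.63e-06). From 24 to 72 h in DMSO, 21 members rose, where 26.2% of all genes rose, and 2 fell, where 25.5% fell, with a median change of 0.66 against 0.02 for all genes. From 72 to 120 h, 11 rose, where 22.1% of all genes rose, and 3 fell, where 18.7% fell, with a median change of 0.11 against 0.01. Among the untreated and DMSO groups, mean CPM was lowest at 12 h for 20 of the 28 members and highest at 120 h for 16. These orders span separate lanes and cannot be told apart from them. The same counts over all genes were not made, so they cannot be read as a result about the members. Of the 7 promyelocyte markers, 5 could be tested. Of these, 4 fell against untreated cells at 4 h (15.7% of all genes) and 3 at 12 h (11.5%), and none rose. Their summed level was 11900 to 13100 CPM in untreated libraries, 8580 to 9680 in DMSO at 4 h and 8480 to 9850 at 12 h, with KIT at or near 0; their part in the members' values was not tested. In these bulk samples, fewer cells of a type and less RNA per cell cannot be told apart.

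ATRA was compared with DMSO at the same hour, which asks what the drug adds to culture time. At 4 h, 4 members were higher, where 12.3% of all genes were higher, and 3 were lower, where 12.4% were lower. At 12 h, 13 were lower, where 18.7% of all genes were lower, and 4 were higher, where 20% were higher, and the median member stood at -0.23 on the log2 scale against 0.03 for all genes. Those 13 were all enzymes or regulators of synthesis, and the 4 higher were SREBF1 and the 3 tested LXR genes.

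At 24 h, 8 members were higher under ATRA, where 17.4% of all genes were higher, and none was lower, where 15.8% were lower. Fitted on the 24 h libraries alone, the count was 15, of which 14 were higher. The share of all genes called in that fit was not computed, so this count cannot be read as a result about the members. At 72 h, 24 were higher, where 32.1% of all genes were higher, and 3 were lower, where 32.6% were lower, with a median of 0.55 on the log2 scale against -0.01 for all genes. The 3 lower at 72 h were PMVK, FDFT1 and SCAP. At 120 h the module was mixed, with 12 higher, where 34.9% of all genes were higher, and 8 lower, where 35.6% were lower. These TMM-scaled shares are near those of all genes. Scaled by RLE size factors instead, 15 were higher and 6 lower, but the shares of all genes under that scaling were not computed.

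**Figure D1:**
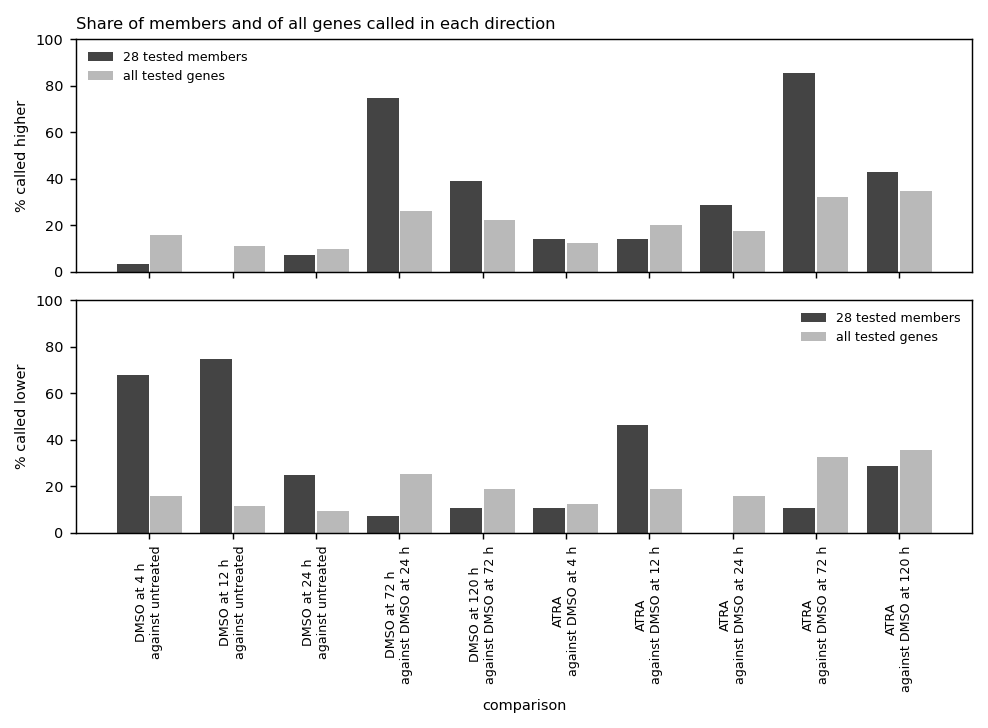
Bars give the percent called higher or lower in each of the 10 comparisons (x axis), for the 28 tested members beside all 22971 genes tested (y axis, percent from 0). The members' bars stand furthest from those of all genes in the falls of DMSO cultures at 4 and 12 h and in the rises at 72 h, and lie near them for ATRA at 120 h.

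The size of the ATRA effect itself changed between times. From 4 to 12 h it changed for 10 members, 8 of them downward, where 14% of all genes changed in either direction. From 12 to 24 h it changed for 19, 16 of them upward, where 6.90% of all genes changed. From 24 to 72 h it changed for 20, 18 of them upward, where 45.9% of all genes changed. From 72 to 120 h it changed for 16, 13 of them downward, where 39.3% of all genes changed. That last step cannot be told apart from the medium and fresh drug added on day 3. Neighbouring times share their ATRA and DMSO libraries in these tests, so the 4 counts are not independent of each other. Shares of all genes by direction were not counted for these tests. In the order of the steps, the median member changed by -0.22, 0.45, 0.42 and -0.23 on the log2 scale. The medians of all genes tested were 0.02, -0.01, -0.04 and -0.07.

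**Figure D2:**
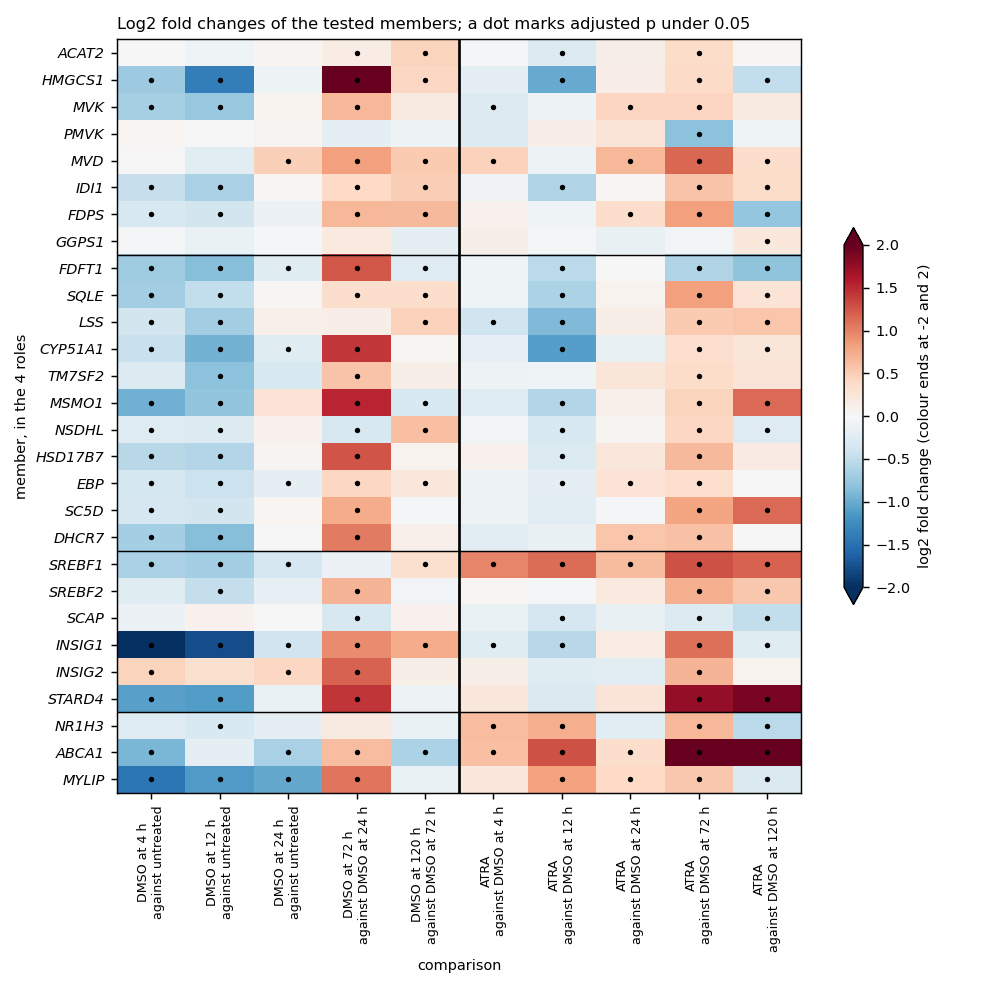
Colours give the log2 fold change of each of the 28 tested members (rows, by role) in each of 5 ATRA and 5 DMSO comparisons (columns), and dots mark adjusted p-values below 0.05. ABCA1 reaches 3.52 under ATRA at 120 h, INSIG1 falls to -2.02 in DMSO at 4 h, and the column for ATRA at 72 h is mostly higher.

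In the mevalonate arm, 4 of 8 members fell in DMSO at 4 h (15.7% of all genes) and at 12 h (11.5%), 6 rose from 24 to 72 h (26.2%) and 5 rose from 72 to 120 h (22.1%). HMGCS1, which joins acetyl-CoA to acetoacetyl-CoA at the entry of the pathway, had the widest range. In replicates 2, 4 and 5 it stood at 141, 155 and 139 CPM in untreated cells, at 86.7, 99.5 and 76.8 in DMSO at 4 h, and at 60.7, 51.5 and 55.3 in DMSO at 12 h. At 24 h in DMSO it was back at 154, 130 and 122 CPM, and at 72 h it reached 516, 553 and 641. The DMSO libraries of 12 h were all below the untreated ones, those of 24 h overlapped them, and those of 72 h were all above both. The fall to 12 h was -1.38 ± 0.09 on the log2 scale (SE; adjusted p 6.41e-15), and the rise from 24 to 72 h was 2.08 ± 0.09 (adjusted p 4.53e-21), or 4.22-fold.

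Under ATRA at 12 h, HMGCS1 stood at 28.5, 28.1 and 26.6 CPM, below each of its DMSO libraries of that hour. That is a further fall of -1.01 ± 0.09 on the log2 scale (adjusted p 1.53e-11). At 72 h its ATRA libraries were at 732, 661 and 841 CPM, above those in DMSO (0.39 ± 0.09, adjusted p 0.000158), and at 120 h they were at 533, 557 and 524, below the DMSO libraries at 741, 763 and 773 (-0.50 ± 0.09, adjusted p 2.84e-06). HMGCS1 was thus lower, higher and lower than DMSO at 12, 72 and 120 h, and its DMSO level was still rising.

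FDPS, which makes farnesyl diphosphate, the branch point towards sterols and protein prenylation, changed side under ATRA. At 72 h it stood at 333, 337 and 381 CPM with ATRA against 186, 201 and 208 with DMSO, a rise of 0.82 ± 0.07 on the log2 scale (adjusted p 5.02e-14). At 120 h it stood at 192, 190 and 166 with ATRA against 323, 317 and 297 with DMSO, a fall of -0.77 ± 0.07 (adjusted p 1.72e-13). No ATRA library overlapped a DMSO library at either time. The ATRA libraries of 120 h were all below those of 72 h, while in DMSO cells the level rose by 0.65 ± 0.07 (adjusted p 2.24e-10).

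MVD, which decarboxylates mevalonate diphosphate to isopentenyl diphosphate, was the enzyme gene most often higher under ATRA, at 4 of 5 times. Its ATRA libraries were at 37.7, 40.5 and 42.2 CPM at 4 h, above 28.3, 27.7 and 31.8 in DMSO (0.46 ± 0.08, adjusted p 3.15e-05). At 72 h they were at 149, 159 and 173 against 69.1, 76.1 and 71.4 (1.15 ± 0.08, adjusted p 2.37e-16, 2.22-fold). At 12 h the groups overlapped and the difference was -0.09 (adjusted p 0.408).

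IDI1, which isomerises isopentenyl diphosphate, was lower under ATRA at 12 h (-0.61 ± 0.12, adjusted p 4.14e-05) and higher at 72 h (0.57 ± 0.11, adjusted p 1.05e-05) and 120 h (0.37 ± 0.11, adjusted p 0.00203). MVK, mevalonate kinase, was higher at 24 h and 72 h by 0.43 at each (adjusted p 0.000271 and 6.97e-05). Its lower value at 4 h (-0.27, adjusted p 0.0461) lost its call without any 1 of ATRA replicates 2 and 4 or DMSO replicates 4 and 5 (-0.28 to -0.17, adjusted p 0.0593 to 0.313).

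With ATRA at 72 h, 6 of the 8 members of this arm were higher (32.1% of all genes), the ACAT2 row among them, and GGPS1 was not called. PMVK, the next kinase of the arm, was the 1 member called lower there (32.6% of all genes). It stood at 4.83, 3.59 and 4.89 CPM with ATRA and at 8.81, 7.21 and 7.40 with DMSO (-0.82 ± 0.13, adjusted p 6e-07), with no overlap. In the fit over all groups, PMVK was called in none of the other 9 comparisons with DMSO or between DMSO times. Fitted on the 24 h libraries alone, it was also called with ATRA at 24 h. GGPS1, which makes geranylgeranyl diphosphate for protein prenylation, was called in 1 of these 10 comparisons, ATRA at 120 h (0.21 ± 0.09, adjusted p 0.0427). The GGPS1 libraries overlapped there, and the call was lost without any 1 of replicates 2 and 4 of either group (0.08 to 0.20, adjusted p 0.0817 to 0.5). For the ACAT2 row, thiolase counts mixed with those of WTAP, ATRA was lower at 12 h (-0.27, adjusted p 0.000508) and higher at 72 h (0.37, adjusted p 2.22e-06), and WTAP's own row gave -0.27 and 0.36.

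In the squalene and sterol arm, 10 of 11 members fell in DMSO at 4 h and all 11 at 12 h, beside 15.7% and 11.5% of all genes. The call of SC5D was lost without any 1 of 3 libraries at 4 h (-0.34 to -0.16, adjusted p 0.0577 to 0.306). At 12 h it was lost without any 1 of 4 (-0.37 to -0.32, adjusted p 0.0519 to 0.1). NSDHL lost its 12 h call without DMSO replicate 2 (-0.22, adjusted p 0.0531). From 24 to 72 h in DMSO 9 rose, beside 26.2% of all genes, while NSDHL fell and LSS had 0.13 (adjusted p 0.142). Under ATRA at 12 h, 8 of the 11 were lower again than in DMSO, beside 18.7% of all genes, and at 72 h 10 were higher, beside 32.1%. SQLE, squalene epoxidase, showed this course with little spread. It had 65.5, 69.0 and 67.8 CPM in untreated cells and 39.2, 45.6 and 40.7 in DMSO at 4 h. At 12 h it had 28.4, 33.0 and 30.9 CPM with ATRA against 44.84, 49.95 and 48.63 with DMSO, and at 72 h 151, 146 and 164 against 88.1, 83.3 and 90.9. The groups did not overlap in any of these comparisons, and the ATRA effects were -0.63 ± 0.07 (adjusted p 1.5e-09) and 0.82 ± 0.07 (adjusted p 1.13e-13).

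CYP51A1, lanosterol demethylase, was the member most reduced by ATRA at 12 h. Its untreated libraries had 53.9, 62.6 and 57.2 CPM, those with DMSO at 12 h had 29.3, 31.3 and 30.1, and those with ATRA at 12 h had 14.5, 14.2 and 13.4. The 3 groups were fully apart, and the ATRA effect was -1.11 ± 0.09 on the log2 scale (adjusted p 5.54e-14, 2.16-fold lower). Its higher value under ATRA at 120 h (0.25, adjusted p 0.00291) lost its call without DMSO replicate 4 (0.18, adjusted p 0.0568).

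LSS, which closes squalene epoxide into lanosterol, was the only enzyme of this arm called lower under ATRA at 4 h. At 4 h it had 64.9, 72.3 and 67.0 CPM with ATRA against 85.4, 81.1 and 104 with DMSO (-0.41 ± 0.08, adjusted p 8.2e-05). At 12 h it had 38.3, 37.9 and 41.0 against 69.4, 75.8 and 70.6 (-0.88 ± 0.08, adjusted p 6.15e-12). By 120 h the order had turned, at 269, 282 and 280 CPM with ATRA against 190, 202 and 176 with DMSO (0.55 ± 0.08, adjusted p 2.65e-08). LSS did not overlap between the groups at any of these 3 times.

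FDFT1, squalene synthase, which commits farnesyl diphosphate to sterols, was called higher under ATRA at none of the 5 times. In DMSO it rose from 186, 181 and 167 CPM at 24 h to 384, 442 and 438 at 72 h, while ATRA cells at 72 h had 275, 292 and 269. The ATRA libraries of 72 h were above all libraries of 24 h but below all DMSO libraries of 72 h (-0.60 ± 0.06, adjusted p 9.77e-11). Set against the averaged DMSO cultures of 24 h and 120 h, the 72 h difference turned to 0.15 (adjusted p 0.0123), so its sign rests on the DMSO level of that hour. At 120 h FDFT1 had 214, 210 and 180 CPM with ATRA and 364, 358 and 335 with DMSO (-0.81 ± 0.06, adjusted p 1.98e-14).

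MSMO1, which removes methyl groups from carbon 4 of the sterol ring, and SC5D, the lathosterol desaturase, had their highest means in ATRA cells at 120 h. MSMO1 had 171, 193 and 184 CPM there with ATRA against 79.3, 79.1 and 91.7 with DMSO. SC5D had 66.6, 71.6 and 76.4 against 32.04, 30.72 and 35.25. Both were 2.19-fold higher (1.13 ± 0.10, adjusted p 3.22e-13, and 1.13 ± 0.11, adjusted p 6.1e-12), with no overlap between the groups. The ATRA effect on MSMO1 grew from 72 to 120 h by 0.68 ± 0.14 (adjusted p 0.000107), and that on SC5D changed by 0.34 ± 0.15 (adjusted p 0.0831).

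DHCR7, which reduces 7-dehydrocholesterol to cholesterol at the end of the pathway, was higher under ATRA at 24 h and 72 h and not at 120 h. It had 185, 172 and 171 CPM with ATRA at 24 h against 111, 130 and 118 with DMSO (0.56 ± 0.10, adjusted p 2.55e-05). At 120 h it had 277, 287 and 229 against 273, 290 and 233, and these groups overlapped (-0.01, adjusted p 0.956). EBP, the sterol isomerase, was also higher at 24 h (0.28, adjusted p 0.000273) and 72 h (0.34, adjusted p 5.52e-06). Its lower value at 12 h (-0.18, adjusted p 0.0145) lost its call without ATRA replicate 2 (-0.15, adjusted p 0.0779).

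Of the remaining sterol enzymes, NSDHL, a sterol dehydrogenase, was lower at 12 h (-0.30, adjusted p 0.00138), higher at 72 h (0.41, adjusted p 1e-05) and lower at 120 h (-0.25, adjusted p 0.00296). The last of these became -0.16 (adjusted p 0.0667) with RLE size factors, and the 72 h value became -0.05 (adjusted p 0.467) against the averaged DMSO cultures of 24 h and 120 h; the mean of NSDHL in DMSO was lower at 72 h than at 24 h or 120 h. HSD17B7, the ketosteroid reductase of the arm, rose 2.4-fold in DMSO from 24 to 72 h and was a further 0.65 ± 0.08 higher with ATRA at 72 h (adjusted p 9.82e-09). Its value at 12 h (-0.27, adjusted p 0.0429) lost its call without any 1 of 5 libraries: ATRA replicates 4 and 5 and all 3 DMSO replicates (-0.30 to -0.21, adjusted p 0.0568 to 0.182). TM7SF2, a sterol reductase, was higher with ATRA at 72 h (0.37 ± 0.13, adjusted p 0.0109), a call lost without ATRA replicate 4 or DMSO replicate 5 (0.31 to 0.33, adjusted p 0.0504 to 0.0652).

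**Figure D3:**
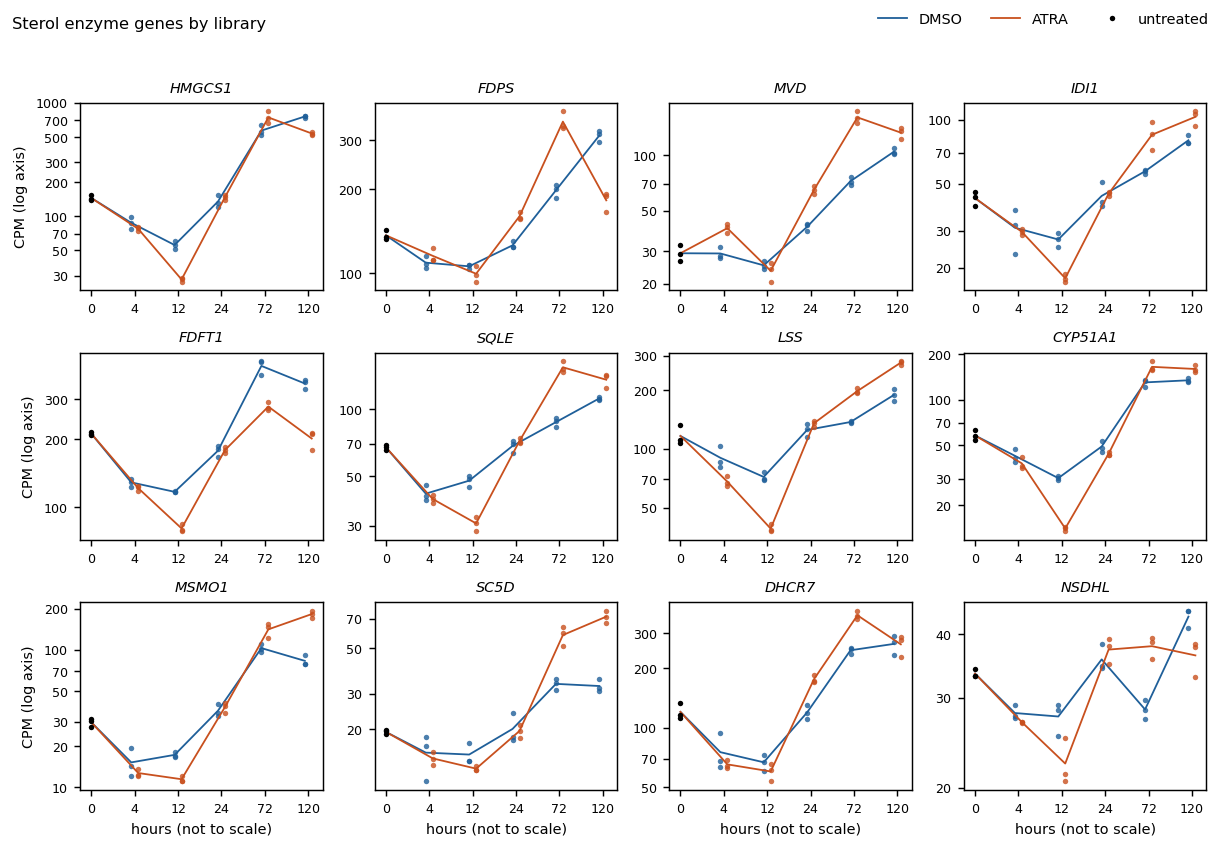
Points give CPM (log axis) of 12 enzyme genes in each of the 33 libraries by hours in culture; lines join group means of DMSO (blue) and ATRA (orange), and untreated cells are black. Most panels dip at 4 and 12 h, lower with ATRA at 12 h, and rise by 72 h; at 120 h the ATRA points of FDPS lie at 166 to 192 CPM, below those of DMSO at 297 to 323.

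Among the genes that control SREBP, INSIG1, the retention protein and itself an SREBP target, fell most in DMSO cultures. It stood at 256, 254 and 255 CPM in untreated cells and at 61.6, 61.5 and 65.3 after 4 h in DMSO. The groups were far apart, with a fall of -2.02 ± 0.07 on the log2 scale (adjusted p 2.63e-24), or 4.06-fold. It was at 78.2, 73.7 and 72.3 CPM at 12 h, at 213, 189 and 181 at 24 h, at 390, 354 and 380 at 72 h and at 632, 635 and 613 at 120 h. Each of the later DMSO groups lay wholly above the one before it.

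With ATRA, INSIG1 was lower than in DMSO at 4 h (51.2, 54.7 and 53.7 CPM; -0.24 ± 0.07, adjusted p 0.00636) and at 12 h (52.2, 51.3 and 49.3 CPM; -0.55 ± 0.07, adjusted p 8.15e-09). At 72 h it stood at 826, 743 and 845 CPM, higher by 1.10 ± 0.06 (adjusted p 2.62e-18, 2.15-fold). At 120 h it stood at 519, 555 and 509 CPM, lower by -0.25 ± 0.06 (adjusted p 0.000673). From 72 to 120 h INSIG1 rose in DMSO cells (0.74 ± 0.06, adjusted p 5.33e-12), and its ATRA libraries of 120 h were all below those of 72 h.

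INSIG2, a retention protein not known for the same feedback, was low and took another course. It was at 5.76, 6.05 and 5.55 CPM in untreated cells and at 7.72, 8.50 and 7.34 in DMSO at 4 h, the only member higher there. That rise of 0.44 ± 0.14 (adjusted p 0.0154) lost its call without DMSO replicate 4 or untreated replicate 5 (0.38 to 0.40, adjusted p 0.0667 to 0.0735). From 24 to 72 h it rose 2.27-fold in DMSO, and ATRA at 72 h added 0.69 ± 0.12 (25.4, 30.7 and 27.8 CPM against 17.7, 18.4 and 16.2, adjusted p 2.76e-06).

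SREBF1, which encodes the SREBP-1 factors and is a known LXR target, was higher with ATRA at all 5 times. It had 189, 205 and 176 CPM with ATRA at 4 h against 91.0, 87.5 and 111 with DMSO, and 190, 217 and 203 against 90.7, 103 and 88.3 at 12 h. At 120 h it had 314, 321 and 296 against 145, 145 and 123. No ATRA library overlapped a DMSO library at these times, and the effects were 0.97 ± 0.08, 1.11 ± 0.08 and 1.17 ± 0.08 on the log2 scale (adjusted p 1.89e-12, 2.19e-14 and 4.99e-16). At 24 h the effect was 0.63 ± 0.08 (adjusted p 3.99e-08), smaller than at 12 h by -0.48 ± 0.12 (adjusted p 0.0054). In DMSO it fell at 4 h by -0.65 ± 0.08 (adjusted p 7.58e-08), as most members did.

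SREBF2, which encodes SREBP-2, the main activator of the enzyme genes, was called later than SREBF1. Its ATRA effects at 4, 12 and 24 h were 0.04, -0.03 and 0.19, with overlapping libraries and adjusted p of 0.206 or more. Fitted on the 24 h libraries alone, SREBF2 was called at 24 h. At 72 h it had 311, 379 and 301 CPM with ATRA against 198, 211 and 197 with DMSO (0.71 ± 0.11, adjusted p 5.84e-07), and at 120 h 275, 319 and 256 against 187, 233 and 167 (0.53 ± 0.11, adjusted p 5.22e-05). The ATRA and DMSO libraries were apart at both later times. SCAP, the escort protein, was lower with ATRA at 3 times and higher at none, by -0.34 at 12 h, -0.28 at 72 h and -0.48 at 120 h (adjusted p 0.000718, 0.00298 and 1.59e-06). SCAP was also called at 24 h in the fit on the 24 h libraries alone.

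STARD4, a soluble carrier that moves cholesterol between membranes, had the largest late rise of this group. It stood at 23.02, 24.89 and 20.82 CPM in untreated cells and at 12.7, 11.8 and 7.89 in DMSO at 4 h. At 72 h it had 187, 166 and 214 CPM with ATRA against 58.7, 51.9 and 57.9 with DMSO, and at 120 h 175, 190 and 216 against 47.4, 50.8 and 58.4. All late ATRA libraries were far above all DMSO libraries, by 1.75 ± 0.13 (adjusted p 1.46e-15, 3.36-fold) and 1.89 ± 0.13 (adjusted p 9.16e-17, 3.71-fold). At 4, 12 and 24 h its libraries overlapped between ATRA and DMSO.

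In the LXR group, ABCA1, the transporter that loads cellular cholesterol onto apolipoprotein, had the largest ATRA effect of all members. Untreated cells had 88.0, 88.6 and 89.2 CPM, and DMSO cells had 47.6, 47.6 and 45.7 at 4 h. ATRA cells had 78.4, 80.4 and 54.9 CPM at 4 h, 213, 196 and 159 at 12 h, and 72.8, 71.2 and 73.0 at 24 h. At 24 h ABCA1 was thus close to its level of 4 h, and the ATRA effect was smaller than at 12 h by -0.92 ± 0.13 (adjusted p 3.9e-06).

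At 72 h ABCA1 stood at 558, 632 and 647 CPM with ATRA against 81.2, 90.1 and 87.6 with DMSO, and at 120 h at 622, 650 and 634 against 55.0, 56.5 and 55.0. These are 7.09-fold (2.83 ± 0.10, adjusted p 8.06e-26) and 11.4-fold (3.52 ± 0.10, adjusted p 9.14e-29). Between 72 and 120 h its DMSO level fell by -0.64 ± 0.10 (adjusted p 8.13e-07), while its ATRA libraries overlapped. Of 12 listed markers of monocytes and macrophages, 7 could be tested; 5 of these were higher with ATRA at 12 h, 3 at 24 h, and all 7 at 72 h and 120 h. Their summed level was 26.5 to 36.4 CPM over untreated and DMSO libraries, 71.1 to 77.1 with ATRA at 12 h, 65.7 to 76.5 at 24 h, 335 to 387 at 72 h and 625 to 729 at 120 h. The libraries of 12 and 24 h were in separate lanes, so the order of these levels between them cannot be told apart from the lane. CD68 and MERTK carried much of the sum, and MSR1, a defining macrophage receptor, was at 0 counts in every library, as were C1QB and MRC1 in ATRA cells at 72 and 120 h. The 7 markers of maturing granulocytes summed to 644 to 738 CPM with ATRA at 120 h against 189 to 233 with DMSO. The 7 markers of promyelocytes summed to 452 to 666 CPM with ATRA at 120 h against 9330 to 11500 with DMSO. A rise with ATRA was not particular to monocyte markers. Of 5 listed lymphocyte markers, 3 could be tested, and 2 were higher and 1 lower at both 72 h and 120 h. The 5 summed to 30.3 to 33.7 CPM with ATRA at 72 h against 3.73 to 4.33 with DMSO. The part of these lists in the ABCA1 values, or in those of the other members at these times, was not tested.

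NR1H3, which encodes LXRα, was called higher at 4, 12 and 72 h and lower at 120 h. With ATRA it had 14.3, 13.7 and 14.3 CPM at 4 h against 7.89, 9.49 and 10.1 with DMSO, a rise of 0.62 ± 0.10 (adjusted p 6.58e-06), and at 12 h the rise was 0.73 ± 0.10 (adjusted p 1.11e-07). At 24 h the groups overlapped (-0.22, adjusted p 0.111). At 72 h NR1H3 had 16.3, 16.9 and 18.8 CPM against 11.6, 10.7 and 10.4 (0.67 ± 0.10, adjusted p 2.03e-07), and at 120 h 6.24, 5.96 and 8.24 against 10.4, 9.77 and 9.62 (-0.54 ± 0.11, adjusted p 4.72e-05). At 120 h all ATRA libraries were below all DMSO libraries, the reverse of 72 h.

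MYLIP, a ubiquitin ligase that removes lipoprotein receptors, fell in DMSO at 4 h to 16.6, 15.4 and 16.9 CPM from 44.0, 43.2 and 46.1 in untreated cells (-1.45 ± 0.11, adjusted p 1.26e-13). ATRA raised it at 12 h to 35.3, 34.3 and 36.7 CPM against 21.37, 19.76 and 20.02 (0.80 ± 0.11, adjusted p 5.32e-08). It was also higher at 24 h (0.40, adjusted p 0.00279) and 72 h (0.53, adjusted p 1.24e-05). At 120 h its libraries overlapped; the call there (-0.29, adjusted p 0.0132) was lost without any 1 of ATRA replicates 2 and 4 or DMSO replicate 5 (-0.21 to -0.17, adjusted p 0.0991 to 0.182), and it was -0.19 (adjusted p 0.0936) with RLE size factors. ABCG1 reached at most 0.429 CPM in any library, in ATRA at 72 h, which is too few counts for a comparison.

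**Figure D4:**
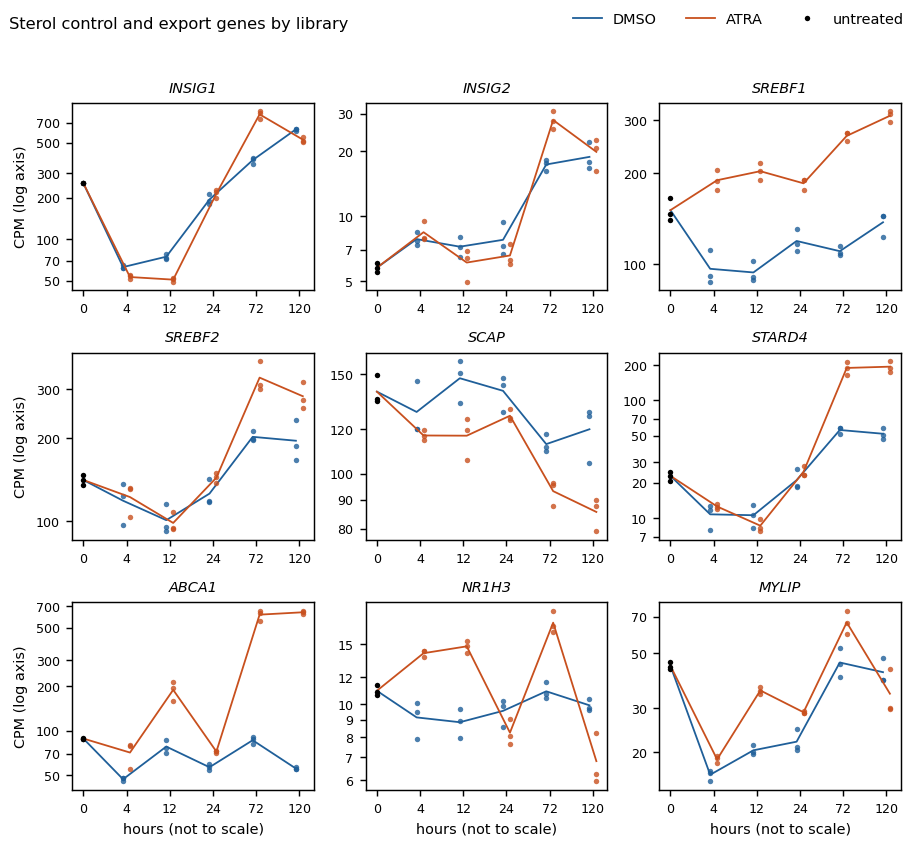
Points give CPM (log axis) of 9 control and LXR genes in each library by hours in culture, with lines through group means of DMSO (blue) and ATRA (orange) and untreated cells in black. SREBF1 and ABCA1 lie higher with ATRA at all 5 times, STARD4 separates at 72 h and 120 h, and INSIG1 and NR1H3 cross between 72 and 120 h.

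Lengths here are those of the merged gene models, up to 33380 bases for ACAT2 and longer than usual transcripts, so the order of levels between genes holds for these lengths only. Per kilobase of exon, the highest members in untreated cells were FDPS at 23.7 CPM per kb, EBP at 21.82, DHCR7 at 21.34 and INSIG1 at 20.96. The lowest were PMVK at 0.571, INSIG2 at 0.328 and ABCG1 at 0.0027. Over all 11 groups, mean CPM was lowest in ATRA at 12 h for 19 of the 28 tested members, among them the 8 sterol enzymes called below DMSO there. The highest mean was in ATRA at 72 h for 13 and in ATRA at 120 h for 10. Exceptions were HMGCS1 and NSDHL, highest in DMSO at 120 h, FDFT1, highest in DMSO at 72 h, SCAP, highest in DMSO at 12 h, and PMVK, highest in ATRA at 24 h.

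Related genes outside the 29 were taken as 5 lists, whose counts stand beside the shares of all genes higher and lower with ATRA: 17.4% and 15.8% at 24 h, 32.1% and 32.6% at 72 h, and 34.9% and 35.6% at 120 h. The lists are short, and several of their counts lie near these shares. Of 10 fatty acid enzymes under SREBP control, 7 were higher and 1 lower with ATRA at 24 h, 8 higher and 1 lower at 72 h, and 4 higher and 6 lower at 120 h. ELOVL6, an elongase, rose at 12, 24 and 72 h by 0.97, 1.53 and 2.02 on the log2 scale, and ACSS2, which makes acetyl-CoA from acetate, by 1.29 at 72 h. ACLY, which makes cytosolic acetyl-CoA from citrate, and FASN, fatty acid synthase, were lower at 120 h by -1.19 and -1.14 (adjusted p 1.24e-19 and 4.17e-14). At 72 h, ME1, malic enzyme, was the member of that list that was lower, by -0.69.

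Of 7 genes for SREBP cleavage and sterol-driven protein turnover, 3 were lower and 1 higher with ATRA at 72 h, and 4 lower and 2 higher at 120 h. MBTPS2, the second SREBP protease, was lower by -0.82 at 120 h (adjusted p 3.19e-09). Of 12 genes that use isoprenoids, 7 were lower and 3 higher at 72 h, and 6 lower and 3 higher at 120 h. FNTB, a farnesyltransferase subunit, was lower by -1.11 at 120 h, and RABGGTA, a subunit of the enzyme that adds geranylgeranyl groups to Rab proteins, was higher by 1.42.

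Of 9 listed LXR partners and further targets, 5 could be tested, and 3 were higher and 1 lower with ATRA at 72 h. RXRA, a partner with which LXR binds DNA, was lower at 4, 12, 24 and 120 h by -1.21, -1.64, -2.46 and -1.97 (adjusted p at 24 h 8.46e-23), with 0.18 at 72 h (adjusted p 0.0867). The ATRA effect on RXRA changed by 2.63 from 24 to 72 h and by -2.15 from 72 to 120 h (adjusted p 2.54e-19 and 1.59e-16). LPCAT3, a phospholipid-remodelling LXR target, was higher at 72 h by 0.84 (adjusted p 3.47e-12). Of 11 genes for oxysterols, cholesterol esters and lysosomal cholesterol, 9 could be tested, and 6 were higher and 2 lower at 120 h. NPC2, which carries cholesterol out of the lysosome, rose at 12, 24, 72 and 120 h by 0.63, 1.06, 1.13 and 2.85, and LIPA, the lysosomal ester hydrolase, by 1.73 at 120 h (adjusted p 3.18e-20). SCARB1, a lipoprotein receptor, was lower by -0.71 at 72 h (adjusted p 9.69e-12). The largest rise in this list at 120 h, 5.44 on the log2 scale, was in a gene not named here. These lists share the ATRA and DMSO libraries of the members.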

How the data were processed

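The deposited table holds counts of fragments per gene, made with featureCounts 1.5.1 on read pairs by strand, with a fragment over several genes counted in each, per the file headers. The submitters' processing notes name Trimmomatic 0.36, STAR 2.5.2b and Subread 1.5.1, and the header names a merged annotation on GRCh38. Symbols came from GENCODE 29. Counts were fitted in edgeR 4.0.16 (R 4.3.3) with filterByExpr, TMM scaling (0.827 to 1.108) and 1 quasi-likelihood model over all 11 groups, with Benjamini-Hochberg adjustment over 22971 genes. Replicate numbers did not enter the model. The steps were tested on simulated data. Alternatives were DESeq2 1.42.0, RLE size factors, no filter, a replicate block, only the compared groups, lane 3 libraries only, another control at 72 h, and leaving out each library. All 29 members were named. Other lists gave up to 3 called genes of largest change per list and ATRA comparison, among genes with an average log2 CPM of at least 1. Members and lists were chosen with earlier results of these data known. No identical libraries were found.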

Additional observations from a re-analysis of the deposited data

Results flagged for a closer look

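For 7 members the ATRA effect was called in opposite directions at neighbouring times, with a tested difference between the times (edgeR's quasi-likelihood test, adjusted p in brackets). From 12 to 24 h, EBP changed by 0.466 on the log2 scale, from -0.18 to 0.28 (0.000226). From 72 to 120 h, FDPS changed by -1.594, from 0.82 to -0.77 (3.6e-17), INSIG1 by -1.350, from 1.10 to -0.25 (1.53e-15), and NR1H3 by -1.208, from 0.67 to -0.54 (1.4e-08). HMGCS1 changed by -0.883, from 0.39 to -0.50 (1.46e-07), MYLIP by -0.820, from 0.53 to -0.29 (1.09e-05), and NSDHL by -0.663, from 0.41 to -0.25 (2.6e-06). Several of these rest on calls that other settings end: with RLE size factors the 120 h values of NSDHL and MYLIP became -0.16 and -0.19 (0.0667 and 0.0936). Against the averaged DMSO cultures of 24 h and 120 h, NSDHL at 72 h was -0.054 (0.467), and without ATRA replicate 2, EBP at 12 h was -0.15 (0.0779). The MYLIP value at 120 h also lost its call without any 1 of ATRA replicates 2 and 4 or DMSO replicate 5 (-0.21 to -0.17, 0.0991 to 0.182). The 12 and 24 h libraries were in separate lanes, which the change of EBP cannot be told apart from. Likewise, the changes from 72 to 120 h cannot be told apart from the medium and fresh drug added on day 3.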

How the results depend on the processing

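The 231 called effects of members gave 3244 values under the alternatives: 3143 kept direction and call, 99 lost the call and 2 reversed. Both reversals came from taking the averaged DMSO cultures of 24 h and 120 h as the control at 72 h (FDFT1 0.154, NSDHL -0.054); the same setting moved HMGCS1 to 1.22, CYP51A1 to 1.03, MSMO1 to 1.37, HSD17B7 to 1.25, STARD4 to 2.52, ABCA1 to 3.45 and MYLIP to 1.13. Fitted on the compared groups only, ATRA at 24 h gave 15 called members against 8. Gained were ACAT2, PMVK, TM7SF2, SREBF2, SCAP, INSIG1 and STARD4. The share of all genes called in that fit was not computed, and the cause was not tested. With a replicate block no call was lost and ATRA at 72 h still gave 27 calls, but same-numbered libraries deviated together only at correlations of -0.087 to 0.200, so the numbers were not taken to pair them. Using lane 3 alone, 9, 27 and 18 members were called at 24, 72 and 120 h. Leaving out 1 library lost 79 of 1776 calls. The counts then ranged, for ATRA at 4, 12, 24, 72 and 120 h, over 6 to 8, 16 to 17, 8 to 11, 26 to 27 and 18 to 21, and for DMSO at 4, 12 and 24 h against untreated cells over 19 to 23, 19 to 21 and 6 to 8. From 24 to 72 h and from 72 to 120 h in DMSO they ranged over 22 to 24 and 13 to 15. DESeq2 lost 2 calls, both at 120 h (NSDHL and MYLIP). PMVK, INSIG2 and NR1H3 rest on the fewest counts of the tested members, and ABCG1 on too few to test.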
